A study of Mus musculus with 42 samples.

Results

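The genes described here are Tie1, Robo4, Emcn and Cldn5, 4 markers of vascular endothelium, followed across 21 mouse mammary tumours. They were chosen by name, as the probes that the platform annotation assigns to these symbols. Each gene had 1 probe, so the members are 4 of 15096 named genes on an array of 22800 probes. All 4 passed the filter for testing, which kept 9407 probes measured on both arrays of at least 15 tumours. The probes carry the accessions of their design, NM_011587 for Tie1, AK004723 for Robo4, NM_016885 for Emcn and NM_013805 for Cldn5.

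The samples were 42 arrays, 2 for each tumour, and each tumour is known by its number. The tumours go back to mammary neoplasms of c-Myc transgenic mice, FVB/N-Tg(WapMyc)212Bri, in which the promoter of the milk protein gene Wap drives the transgene. Selection in living mice gave lines with glandular growth, solid/comedo growth without or with lung metastases, or spindloid growth. The labels do not give the line of each tumour, so the lines could not be compared, and there is no normal gland or other control group among these samples. Each tumour RNA was set against a universal mouse reference RNA on a pair of arrays with the dyes swapped. The 2 arrays of a tumour are technical repeats of its RNA, so the p-values of the linear model measure hybridisation error and not the spread between animals. The permutation tests treat the tumours as independent, which could not be checked because the line of each is unknown. Their p-values are too small if tumours of a line are alike.

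Endothelial cells line blood vessels. Tie1 is an orphan receptor tyrosine kinase that acts with Tek (Tie2), the receptor of the angiopoietins. Robo4 is an endothelial member of the Roundabout receptor family and stabilises vessels. Emcn, endomucin, is a sialomucin of the endothelial surface that is prominent on capillaries and veins. Cldn5 is the claudin of endothelial tight junctions and helps to set how permeable a vessel is.

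The upstream sequence of the 4 genes is shown because their levels were followed together, and because ETS transcription factors, many of them active in endothelium, bind around a GGAA core. Each window, from RefSeq on GRCm38.p6, holds 300 bases from upstream of the gene's start to just inside it, with every GGAA, or TTCC where the core lies on the other strand, in capitals. The windows are chr4:118489800-118490099 on the minus strand for Tie1, chr9:37401722-37402021 on the plus strand for Robo4, chr3:137340828-137341127 on the plus strand for Emcn and chr16:18776597-18776896 on the plus strand for Cldn5.
Tie1: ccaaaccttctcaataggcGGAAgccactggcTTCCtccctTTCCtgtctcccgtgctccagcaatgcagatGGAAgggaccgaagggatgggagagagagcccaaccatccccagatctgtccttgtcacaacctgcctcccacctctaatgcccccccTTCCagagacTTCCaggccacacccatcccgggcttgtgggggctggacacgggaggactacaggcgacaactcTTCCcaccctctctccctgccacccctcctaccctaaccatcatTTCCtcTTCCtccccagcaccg
Robo4: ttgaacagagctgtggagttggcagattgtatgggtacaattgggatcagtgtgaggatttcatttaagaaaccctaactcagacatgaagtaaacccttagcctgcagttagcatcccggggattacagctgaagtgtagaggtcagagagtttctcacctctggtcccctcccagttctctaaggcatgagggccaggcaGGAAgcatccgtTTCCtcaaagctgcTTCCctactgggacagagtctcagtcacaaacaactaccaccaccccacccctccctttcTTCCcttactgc
Emcn: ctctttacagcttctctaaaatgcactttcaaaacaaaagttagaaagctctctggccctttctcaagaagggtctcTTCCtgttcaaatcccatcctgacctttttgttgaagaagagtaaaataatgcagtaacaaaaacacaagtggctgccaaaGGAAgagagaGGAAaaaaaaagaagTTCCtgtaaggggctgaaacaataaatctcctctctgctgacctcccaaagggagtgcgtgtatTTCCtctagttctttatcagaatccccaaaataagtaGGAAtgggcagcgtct
Cldn5: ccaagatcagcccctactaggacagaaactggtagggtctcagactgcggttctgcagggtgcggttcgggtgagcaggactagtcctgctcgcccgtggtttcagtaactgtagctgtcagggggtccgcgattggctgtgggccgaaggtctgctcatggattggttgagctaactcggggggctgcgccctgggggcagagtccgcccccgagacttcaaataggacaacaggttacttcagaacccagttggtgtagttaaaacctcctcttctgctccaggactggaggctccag
The window of Tie1 held 9 such cores, that of Emcn 6, that of Robo4 4 and that of Cldn5 0. Over 32851 mouse promoters of the same length, 96.0% held at least 1 core on either strand, with a median of 3. At least 4 cores were found in 46.3% of them, at least 6 in 15.7% and at least 8 in 3.72%. The longer form AGGAAG, which contains the core, was found on either strand 2 times in Tie1, 2 times in Emcn, 1 time in Robo4 and 0 times in Cldn5. Of all promoters, 35.4% held it at least 1 time and 8.62% at least 2 times. These are matches of letters, and the data hold no measurement of binding.

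Values are log2 ratios of tumour over reference. The labels do not say which array of a pair had which dye. The sign common to all arrays was a choice, made to give the transgene Myc positive values. That direction is likely, not settled: the α-globin gene Hba-a1, expressed in red cells, lay on the same side in 21 of 21 tumours, and the milk protein gene Csn2 in 17 of 21. Turned as a whole, every sign would change and the highest tumour would become the lowest. The arrays gave 8600 to 21328 measured probes each, with a median of 17478.5. Their medians after turning ran from -1.38 to 1.22, so results are given on the deposited scale and again with each array centred on its own median. The 2 arrays of a tumour had correlated below 0 before turning in 20 of 21 tumours, as a dye swap gives, and tumour 656, at 0.074, was the exception.

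All 4 genes had their highest level in tumour 673 on the deposited scale. With slide run as a block in the fit only Robo4 did, and the highest tumour was 639 for Tie1, 644 for Emcn and 656 for Cldn5. For Tie1, tumour 669 was close behind, at 1.72 against 1.75 in tumour 673 (adjusted p 0.993 in limma's contrast). Of 42 fits that each left out 1 array, tumour 673 was the highest in 39 for Tie1, 40 for Robo4 and 42 each for Emcn and Cldn5. The share of all genes that were highest in tumour 673 was not counted. Tumour 664 was the lowest for Tie1, Robo4 and Cldn5, and for Emcn among the tumours measured on both arrays. Tumour 673 was the only tumour among the highest 3 for every member, and 2 tumours, 663 and 664, were among the lowest 6 for every member. In limma's moderated F test, with a term for dye orientation and Benjamini-Hochberg adjustment, the 4 members all differed between tumours at an adjusted p below 0.05. That count stands against 43.9% of all probes tested (4132 of 9407), and nothing particular to the members is read from it. In whole tumour RNA, fewer endothelial cells and less of a transcript in each of them cannot be told apart.

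**Figure D1:**
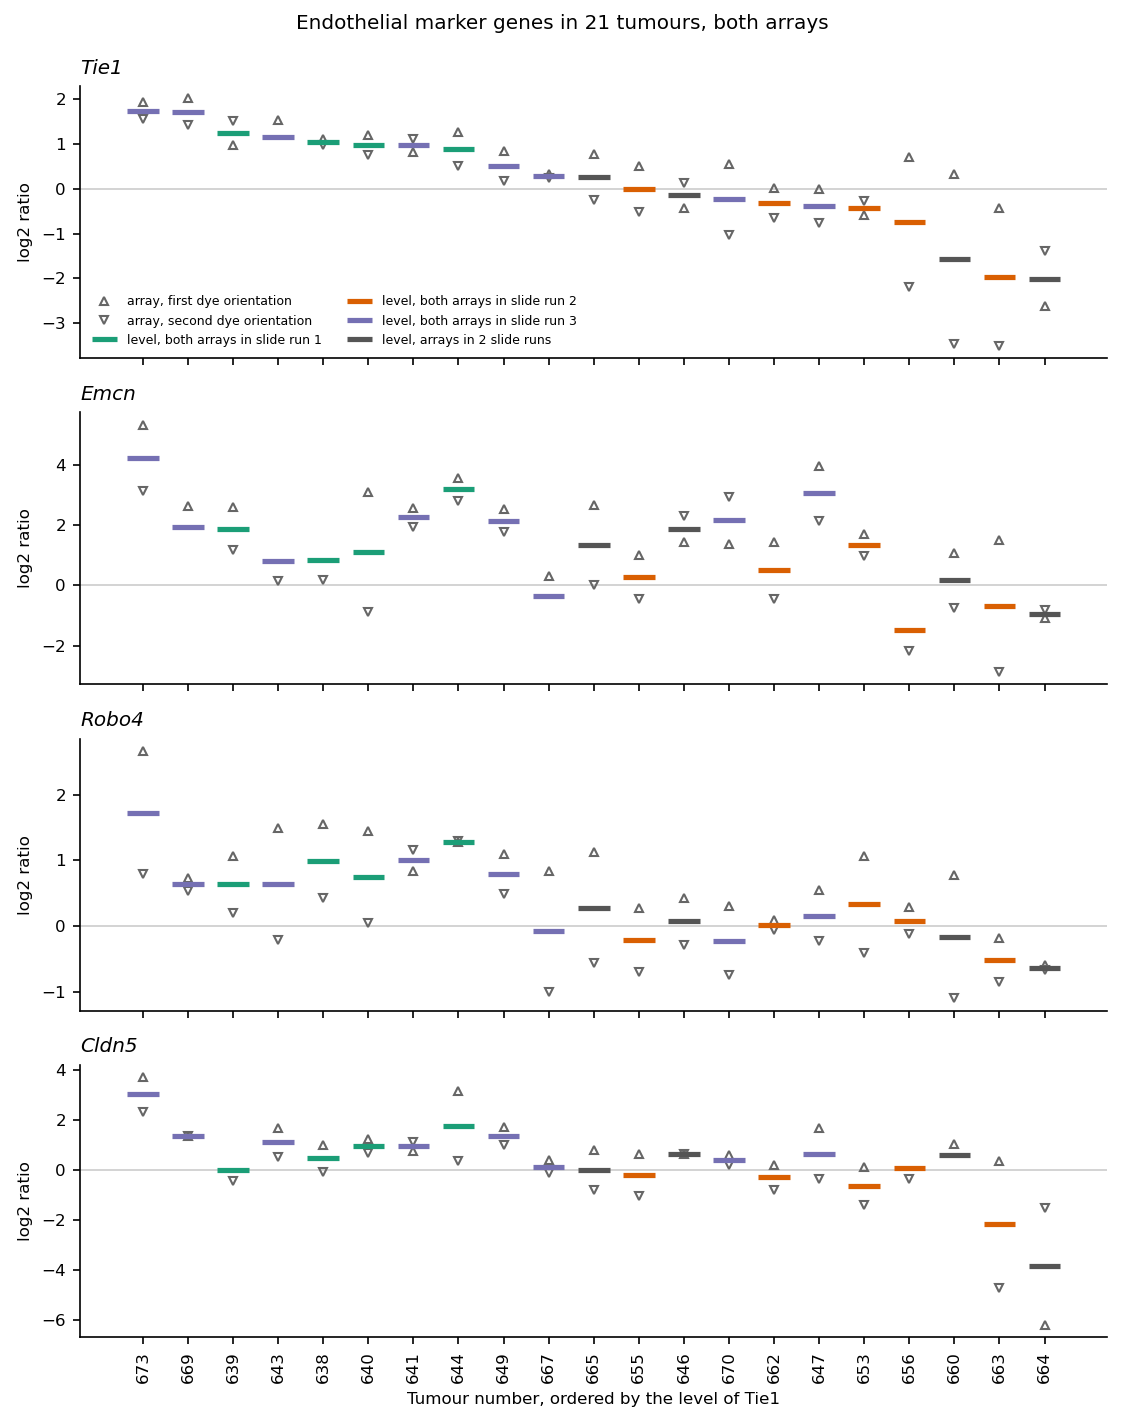
Log2 ratio of tumour over reference for each gene (vertical axes) in the 21 tumours, which run from left to right by the level of Tie1. Triangles are the arrays of each dye orientation, bars the fitted tumour levels coloured by slide run. Tumour 673 is the highest for all 4 genes, and the arrays of tumours 660 and 663 lie far apart for Tie1.

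Tie1 had log2 ratios of 1.93 and 1.56 on the 2 arrays of tumour 673, against -2.62 and -1.40 on those of tumour 664. Over the 21 tumours its fitted level was at most 1.75, with a median of 0.26 and a lowest value of -2.01. The highest and lowest tumours thus differed by 3.76 on the log2 scale, or 13.5-fold, with a standard error of 0.865 for the difference (adjusted p 0.0111 in limma's contrast, over all probes and pairs of tumours). The range was 4.94 without the first array of tumour 663, 4.91 without the second of tumour 660 and 4.79 without the second of tumour 664, so up to 30.7-fold. Over all 21 tumours the F test gave an adjusted p of 0.0176. Tumours 673 and 664 were chosen as the ends of the order, so nothing is read from the gap between their arrays. Paired arrays disagreed at the low end: tumour 663 had -0.42 and -3.51, and tumour 660 had 0.34 and -3.46, the largest half-difference of any pair for this gene at 1.90. In 11 of 21 tumours Tie1 lay above 0.

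Robo4 had the narrowest range and the smallest error of the 4. Its ratios were 2.66 and 0.79 in tumour 673, against -0.59 and -0.67 in tumour 664. Fitted levels reached 1.73 at the top of the order and -0.63 at its bottom, around a median of 0.28. The difference of 2.36 between the ends was 5.12-fold, with a standard error of 0.498 (adjusted p 0.00578 in limma's contrast), and the F test over all tumours gave an adjusted p of 0.0219. Tumour 644, the second highest, had ratios of 1.28 and 1.29, so the closest pair of arrays for this gene stood near the top of the order. Without the second array of tumour 673 the range of Robo4 was 1.92, its highest tumour was 644 and its adjusted p in limma's test was 0.0541. It was the only member measured on all 42 arrays, and 19.0% of its values were ratios of small whole numbers, a mark of dim spots, against 35.2% of all values.

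Emcn reached the highest ratios of the 4, with 5.32 and 3.13 in tumour 673. The next tumours were 644, with 3.56 and 2.81, and 647, with 3.96 and 2.13. At the low end, tumour 664 had -1.10 and -0.83. The fitted level had a median of 1.33 and lay above 0 in 17 of 21 tumours, more than for any other member. Tumours 673 and 664 differed by 5.19, with a standard error of 1.04 (adjusted p 0.00571 in limma's contrast), and the F test over all tumours gave an adjusted p of 0.0201. Tumour 656 had a lower fitted level, -1.49, but from 1 array only. The range down to it was 5.72, and without the first array of tumour 663 the range was 6.52. Emcn was the least complete member, with values on 37 arrays, both arrays in 16 tumours, and 1 array of tumour 643 at the top value of the table, which was treated as missing. With that top value kept, its adjusted p in limma's test was 0.461, in a fit that called 37.2% of probes.

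Cldn5 had the widest range. Its ratios were 3.69 and 2.32 in tumour 673, against -6.19 and -1.53 in tumour 664. Fitted levels reached 3.00 at the top of the order and -3.86 at its bottom, around a median of 0.45. The difference of 6.86 between these tumours had a standard error of 1.23 (adjusted p 0.0021 in limma's contrast). The F test over all tumours gave an adjusted p of 0.0491, the largest of the 4. The arrays of tumour 664 decide the size of this difference: the range was 5.19 without its first array and 9.82 without its second. Tumours 664 and 663 stood apart from the rest of the order, at -3.86 and -2.19, and every other tumour lay between -0.63 and 3.00. Both tumours rest on pairs of arrays that disagreed: tumour 663 had 0.35 and -4.73, a half-difference of 2.54. Of the 42 fits that each left out 1 array, Cldn5 passed the threshold in 9 and not in 33, with adjusted p from 0.000969 without the second array of tumour 664 to 0.0926.

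Neighbours in the order could not be separated for any member. Of 20 neighbouring pairs of tumours per gene, 0 differed in limma's contrasts adjusted over all probes and pairs, and 0 had an unadjusted p below 0.05. The smallest adjusted p was 0.503, for Cldn5. Over all 210 pairs of tumours, 15 differed for Tie1 (7.14%), 10 for Robo4 (4.76%), 13 for Emcn (6.19%) and 12 for Cldn5 (5.71%), against 6.1% over all probes. In all 10 pairs of Robo4 and all 12 of Cldn5, tumour 673 was the higher or 663 or 664 the lower, as in 14 of 15 for Tie1 and 11 of 13 for Emcn. The tumours were ordered by these same levels, so neighbours differ least and the ends most by construction. Nothing particular to the members is read from these counts.

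Centring ended the calls of Tie1, Robo4 and Cldn5 but not that of Emcn. With each array centred on its median, the adjusted p in limma's test was 0.0141 for Emcn, 0.0682 for Cldn5, 0.218 for Tie1 and 0.29 for Robo4, against 25.8% of probes called in that fit. Tumour 673 was still the highest for all 4, at 4.04 for Emcn, 2.82 for Cldn5, 1.56 for Tie1 and 1.54 for Robo4. Tumour 664 was still the lowest for Tie1 and Cldn5, but for Robo4 the lowest was tumour 667, at -0.63. The centred range was 3.13 for Tie1 and 2.18 for Robo4, against 3.76 and 2.36 on the deposited scale.

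Over tumours with both arrays measured, Tie1 correlated with the median of all probes in the tumour at Pearson r 0.787 and Spearman rho 0.78 (20 tumours, adjusted permutation p 0.00024 and 0.00064 over the 4 genes). Emcn followed it at r 0.675 and rho 0.621 (16 tumours, adjusted permutation p 0.00828 and 0.0162). For Robo4 r was 0.549 and rho 0.613 (21 tumours, adjusted permutation p 0.0129 and 0.0068). For Cldn5, without tumours 663 and 664, r was 0.416 and rho 0.559 (16 tumours, adjusted permutation p 0.113 and 0.0279). These tumours stayed in for the other members, so the values of Cldn5 cannot be ranked against theirs. Both had low medians, -0.698 and -0.401, and the lowest levels of Cldn5. Without the 2 tumours farthest from the median, r was 0.679 for Tie1, 0.544 for Emcn, 0.437 for Robo4 and 0.42 for Cldn5. Within slide run 3, the only run with at least 6 such tumours, r was 0.557 for Tie1 (7 tumours, exact permutation p 0.192), 0.025 for Robo4 (8 tumours, exact p 0.962) and -0.017 for Cldn5 (8 tumours, exact p 0.978). Whole arrays shifted on this scale, so a test against a correlation of 0 with the median is a low bar. The r of all other probes with the median was not computed. Nothing particular to the members is therefore read from these p-values.

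**Figure D2:**
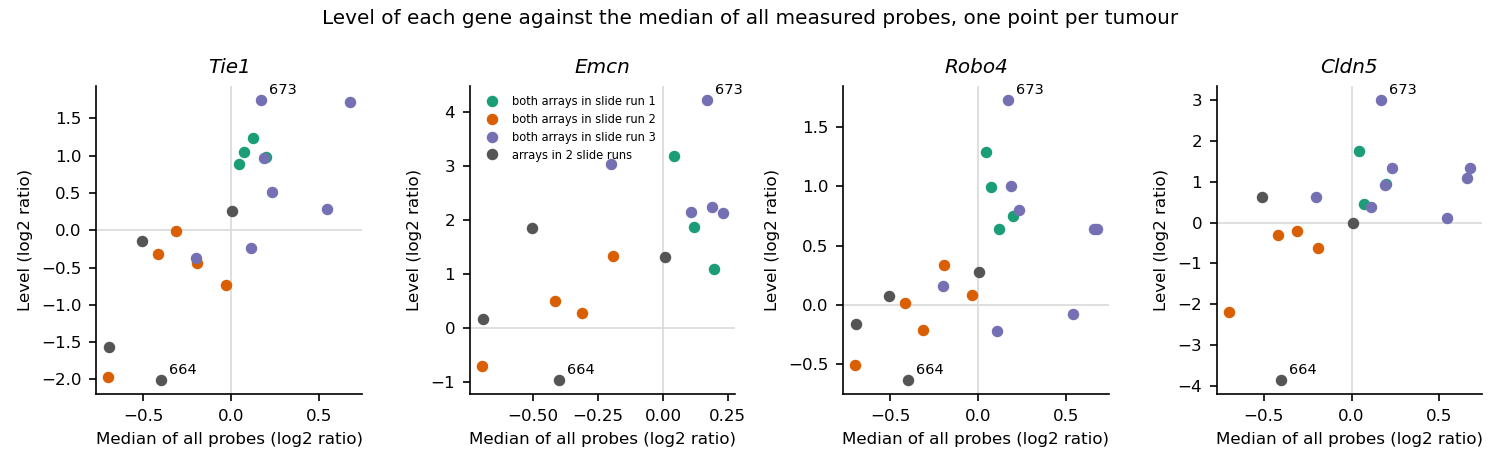
Level of each gene (vertical axes, log2 ratio) against the median of all measured probes of the tumour (horizontal axes, log2 ratio), for tumours with both arrays measured, coloured by slide run. Tie1 follows the median most closely (r 0.787), and tumour 673 lies above the other tumours of a like median in every panel.

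The 4 genes correlated with each other over the tumours, in tests against a correlation of 0. That is a low bar here, because the median r over 7618 genes was 0.31 with Emcn and 0.52 with Tie1. These medians use fitted levels of about 21 tumours, and the values below use tumours with both arrays measured. Over fitted levels, r between members ran from 0.636 for Tie1 and Emcn to 0.845 for Tie1 and Robo4. The share of all gene pairs that would pass the same test was not computed, so nothing particular to the members is read from these p-values. Tie1 and Robo4 correlated at Pearson r 0.846 and Spearman rho 0.785 over 20 tumours, with permutation p of 2e-05 for r, the smallest that 100000 two-sided permutations can give, and adjusted p of 0.00012 over the 6 pairs. Emcn correlated with Robo4 at r 0.815 and rho 0.741 and with Tie1 at r 0.782 and rho 0.624, each over 16 tumours (adjusted permutation p 0.00024 and 0.00078 for r). For Cldn5, a mixture model put tumours 663 and 664 in a component of their own, so its correlations leave them out. Among the rest, Cldn5 correlated with Emcn at r 0.838 and rho 0.706 (12 tumours, adjusted permutation p 0.00144 for r). It correlated with Robo4 at r 0.81 and rho 0.724 (16 tumours, 0.00078) and with Tie1 at r 0.769 and rho 0.725 (15 tumours, 0.0012).

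With the arrays centred, r ran from 0.591 for Tie1 and Robo4 to 0.802 for Emcn and Cldn5, with adjusted permutation p of at most 0.00622. Without the 2 tumours farthest from the median it ran from 0.604 to 0.788, and the adjusted p for r stayed below 0.05 in all 6 pairs, though that for rho did so only for Tie1 and Robo4 (0.0108). After slide run means were removed, r was 0.655 to 0.791, and rho of Emcn and Cldn5 was 0.427 (adjusted permutation p 0.169). Within slide run 3, r was 0.918 for Robo4 and Cldn5 (8 tumours, adjusted exact permutation p 0.0121), 0.797 for Tie1 and Robo4 and 0.757 for Tie1 and Cldn5 (7 tumours each, 0.0397 for both). Runs 1 and 2 had too few tumours for a value of their own.

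**Figure D3:**
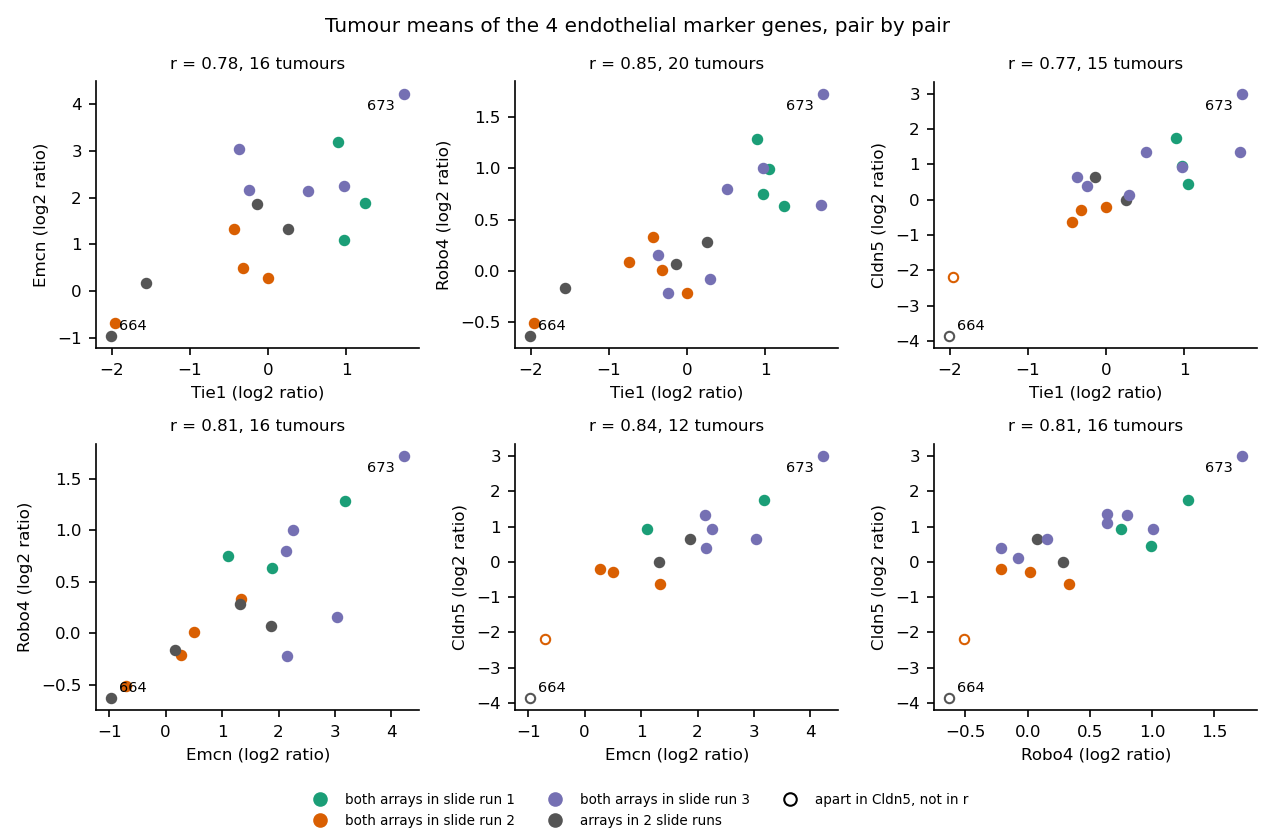
Levels of each pair of genes (both axes, log2 ratio), 1 point for each tumour with both arrays measured for both genes, coloured by slide run. Open points are tumours 663 and 664, which are outside r for Cldn5. In all 6 panels the points run from low in both genes to high in both, with tumour 673 at the top right.

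On the deposited scale a high correlation was common across the array. The median r over 7618 genes was 0.52 with Tie1, 0.42 with Robo4, 0.40 with Cldn5 and 0.31 with Emcn, and after centring it was 0.16, 0.16, 0.15 and 0.16. As a description over fitted levels of about 21 tumours, the genes most like Tie1 were Zan, Slc30a5, Pdlim1, Muc6 and Casp6, with r from 0.92 to 0.931. Robo4 was most like Ttl, Tie1, Bsn, Piwil1 and Fut9, with r from 0.826 to 0.845. Emcn was most like Trrap, Nrbp1, Blvrb, Rassf1 and Rras (0.877 to 0.906), and Cldn5 most like Tmem19, Rgl1, Zfp326, Tsg101 and H2-Ab1 (0.887 to 0.914). Tie1 was thus the only member among the 5 closest genes of another, and with centred arrays no member was. Ranked by r with Tie1, Robo4 was number 191, Cldn5 752 and Emcn 2408 of 7618. With centred arrays the order was another, with Cldn5 at 94, Emcn at 555 and Robo4 at 675.

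Slide run, read from running numbers in the titles and not called a batch by the labels, moved with the members. Tie1 averaged -0.69 ± 0.76 in 5 tumours of run 2 and 0.80 ± 0.70 in 11 tumours of runs 1 and 3 (SD), a difference of -1.49 with an adjusted exact permutation p of 0.00549 over the 4 genes. Tumours with arrays in more than 1 run, or without both arrays measured, were left out. The difference was -0.75 for Robo4 (0.011, 5 tumours against 12) and -2.14 for Emcn (0.0108, 4 against 8). For Cldn5 the difference was -1.93 (0.00549, 4 against 11), all on the log2 scale and by the same exact test. With centred arrays it was -0.94 for Tie1 (adjusted exact p 0.025), -1.60 for Emcn (0.0242) and -1.24 for Cldn5 (0.0242), but -0.16 for Robo4 (0.601). This split was not among the planned tests. On the deposited scale run 2 had the lowest median of the runs for all 4 genes (for Tie1 -0.43, against 1.01 and 0.52 in runs 1 and 3). The p-values thus describe a split that goes with the members' own levels. The share of all probes that differ by it was not computed. Only 4 tumours had arrays in more than 1 run, so run and tumour can mostly not be told apart. With slide run as a block in limma's fit the adjusted p was 0.0733 for Tie1, 0.108 for Emcn, 0.163 for Robo4 and 0.143 for Cldn5, with 27.1% of probes called. Fitted within runs 1, 2 and 3, where 2.1%, 0.0% and 6.01% of probes were called, none of the 4 passed the threshold, and the smallest adjusted p was 0.0888, for Tie1 in run 3.

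The members' calls in limma's test also depended on the dye term and on the filter. Without it, the adjusted p was 0.0889 for Tie1, 0.164 for Emcn, 0.536 for Robo4 and 0.151 for Cldn5, with 19.2% of probes called. With no filter on missing values it was 0.0727 for Tie1, 0.0785 for Emcn, 0.122 for Robo4 and 0.141 for Cldn5, with 10.6% called. The fitted dye effect was 0.38 for Tie1, 0.46 for Robo4, 0.68 for Emcn and 0.46 for Cldn5 on the log2 scale, against a median size of 0.352 over all probes. The SD of an array within its tumour was 0.498 for Robo4, 0.865 for Tie1, 1.04 for Emcn and 1.23 for Cldn5, against a median of 0.715.

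**Figure D4:**
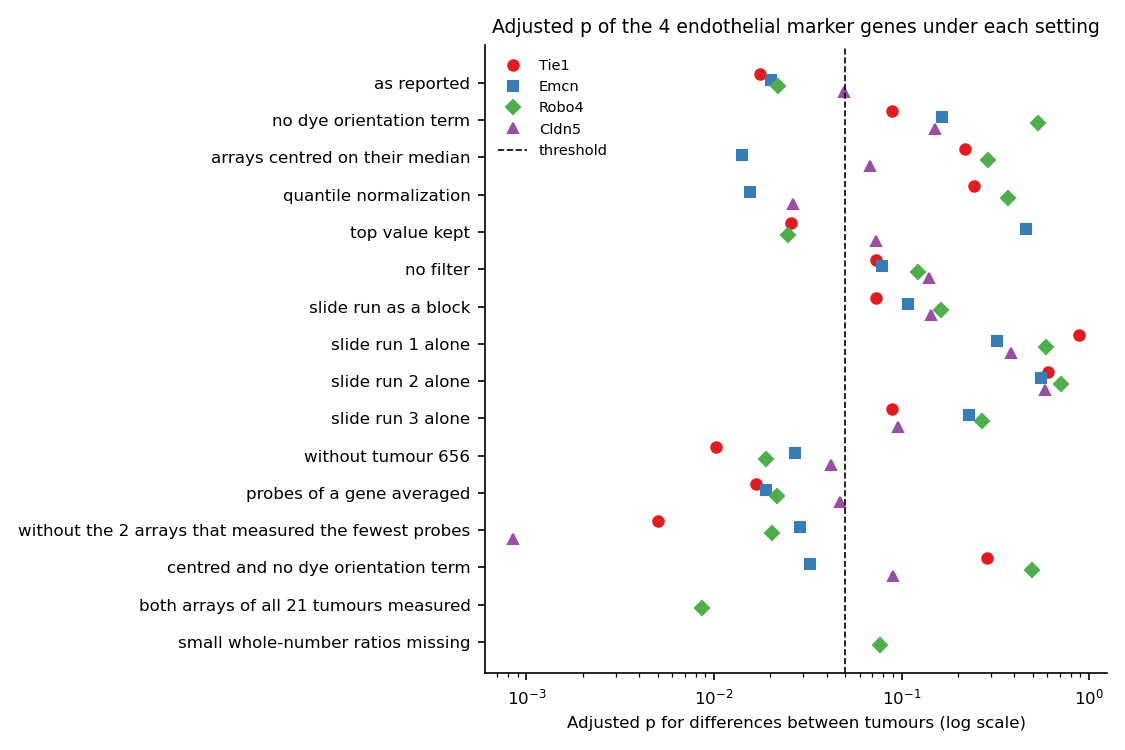
Adjusted p of limma's test for differences between tumours (horizontal axis, log scale) for each gene under each setting of the fit (vertical axis), with the threshold of 0.05 as a dashed line. All 4 genes lie left of the line in the fit as reported, and all 4 lie right of it without the dye term, with no filter, with slide run as a block and within each run.

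Among 60 other genes of endothelial cells, 56 were on the array and 15 passed the filter, and 7 of these 15 differed between tumours, against 45.1% of all genes tested. Their median range between the highest and lowest tumour was 2.69 on the log2 scale, against 3.05 over all genes. Cav1, the coat protein of caveolae, ran widest, with 0.61 in tumour 649 and -7.28 in tumour 663 (adjusted p 7.73e-06 in limma's test). Tm4sf1, a membrane protein abundant in endothelium and in several tumours, had 1.80 in tumour 647 and -4.53 in tumour 663 (2.27e-07). Mcam, an adhesion molecule of vessels, had 5.40 in tumour 667 and -0.54 in tumour 663 (0.0069), and Nos3, the endothelial nitric oxide synthase, had 0.90 in tumour 669 and -2.36 in tumour 660 (0.017). The ETS factors Erg and Ets2 and the SOX factor Sox7 also passed, with adjusted p of 0.0251, 0.0351 and 0.0401.

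The VEGF receptors tested did not pass. Kdr, the main signalling receptor of VEGF-A, had 1.48 in tumour 638 and -1.14 in tumour 660 (adjusted p 0.16 in limma's test), and Flt1 had an adjusted p of 0.321. Ets1 had the largest adjusted p of the list, 0.727. In tumour 673 the level of Kdr was 1.29 and that of Flt1 1.05, while in tumour 664 they were -0.94 and -1.03. Of the 15 genes, 14 were higher in tumour 673 than in tumour 664, against 81.2% of all genes. None of the 15 was highest in tumour 673, unlike the 4 members. With centred arrays 5 of the 15 passed, against 26.5% of all genes.

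Of 14 ligands and partners of vascular receptors, 10 were tested and 2 differed, and with centred arrays 4 did, against the 45.1% and 26.5% of all genes given above. The 2 were Tgfb1, with 1.70 in tumour 644 and -2.83 in tumour 663 (adjusted p 0.000783 in limma's test), and Unc5b, a receptor that binds Robo4, with 1.10 in tumour 647 and -4.57 in tumour 656 (0.00845). Angpt2, a ligand of Tek, had an adjusted p of 0.807. Of 16 tight junction partners, 7 were tested and 4 differed, on the deposited scale and with centred arrays, among them the scaffold Tjp1, which binds claudins, with 1.92 in tumour 649 and -1.41 in tumour 664 (0.00351). The epithelial claudins Cldn3 and Cldn7 differed as well (0.0112 and 0.0194), and their levels in tumour 664, the lowest for Cldn5, were 3.38 and 3.06. The other tested claudins, none of which passed, were low there: Cldn4 had its lowest level, -0.50, Cldn11 had -2.32 and Cldn12 had -2.35. Of Robo1, Robo2, Robo3 and Tek, none passed the filter, so the relatives of Tie1 and Robo4 were not tested.

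Some markers of other cells of the vessel wall and of blood were also highest in tumour 673, and others of the vessel wall were not. The counts of genes that differed stand against 45.1% of all genes, and the same 81.2%, of 7332 genes, were higher in tumour 673 than in tumour 664. Of 9 genes of red cells and platelets 2 were tested and 1 differed, Hba-a1. It was highest in tumour 673, at 8.82, with a median of 3.22 and a lowest level of 0.63 in tumour 662 (adjusted p 3.55e-06 in limma's test). Of 11 genes of pericytes and smooth muscle, 6 were tested and 4 differed, and of these Des, at 5.18, and Myh11, at 1.39, were highest in tumour 673. The other tested genes of this list were highest elsewhere: Rgs5 in tumour 669, Acta2 in tumour 667, and Tagln and Cnn1 in tumour 644. Of 7 fibroblast genes 6 were tested and 5 differed. Col1a1 had 2.78 in tumour 673 and -1.09 in tumour 664, and the mesenchymal filament Vim had 0.47 and -4.15. All 6 tested macrophage genes differed, and C1qa had 4.13 in tumour 673 and 1.66 in tumour 664. All 6 genes of the pericyte list, 6 of the fibroblast list and 6 of the macrophage list were higher in tumour 673 than in tumour 664. Of 6 tested epithelial genes all 6 differed and 3 were higher in tumour 673: Krt8 had 2.45 in tumour 673 and 1.29 in tumour 664, while Epcam had -1.05 in tumour 673 and 1.74 in tumour 664. The lymphatic list had 1 tested gene, Flt4, which did not pass (0.332), and the adipocyte list had 2, of which neither passed, although Fabp4 was highest in tumour 673, at 5.05. Over fitted levels, the median r with Tie1, Robo4, Emcn and Cldn5 was 0.61, 0.51, 0.46 and 0.55 for the 15 other endothelial genes. In that order it was 0.53, 0.53, 0.56 and 0.48 for the pericyte list and 0.3, 0.43, 0.73 and 0.46 for the fibroblast list. It was 0.61, 0.65, 0.65 and 0.62 for the macrophage list and 0.26, 0.01, -0.22 and -0.06 for the epithelial list. Over all genes it was 0.52, 0.42, 0.31 and 0.4. The part of these cells in the members' levels was not tested.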

How the data were processed

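The authors deposited log2 dye ratios, as the range and steps of the values show. Per the labels, RNA was extracted with TRIzol and labelled indirectly, and each tumour was hybridised as a dye-swapped pair on a printed oligonucleotide library. The sources used here name no background correction or normalization, and no orientation of single arrays. Orientation was deduced from the first eigenvector of the correlations between pair differences. The repeated top value of 16.61 (2.14% of values) was treated as missing, and blanks made up 24.1% of cells. Names came from the platform annotation, with 16874 probes of 1 symbol, 134 of several and 5792 of none.

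A linear model with tumour and dye orientation was fitted with limma 3.58.1 in R 4.3.3 to 9407 probes, without centring, with a moderated F test, Benjamini-Hochberg adjustment and a threshold of 0.05. Lists used the averaged probes of a gene. Correlations used tumours with both arrays measured and 100000 permutations, or exact enumeration for fewer than 10 tumours, two-sided, with components from mclust 6.1.1. Values exactly equal to the log2 of a ratio of whole numbers up to 20 (tolerance 0.0006) were taken as dim. On simulated data the fit recovered 69% of 100 probes with a tumour effect of SD 1 and 96% with SD 2, with 7 false calls. The simulated errors were independent between probes, with no shift of a whole array. The 7 false calls therefore do not cover error from the shifts between the real arrays. The members, the gene lists, the named-gene rule (up to 8 genes of a list by smallest adjusted p, up to 2 by largest, and the 5 most alike) and the dye term were chosen with earlier results of these data known. Kdr and the marker genes set beside tumour 673 were picked after their values were seen. An earlier fit had no dye term, and the members' calls depend on that choice.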

Additional observations from a re-analysis of the deposited data

How the results depend on the processing

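The member calls were fragile, and the correlations between members less so. The adjusted p of limma's test is given for Tie1, Emcn, Robo4 and Cldn5 in that order, with the count of probes that differed (4132 as reported) and of other endothelial genes (7 of 15). Without the dye term these were 0.0889, 0.164, 0.536 and 0.151, with 1804 probes and 2 genes. With centred arrays they were 0.218, 0.0141, 0.29 and 0.0682, with 2427 probes, and centred without the dye term, a setting added after seeing the data, 0.287, 0.0327, 0.498 and 0.0903, with 1708 probes and 4 genes. Quantile normalization gave 0.244, 0.0156, 0.37 and 0.0265, with 2004 probes and 4 genes, and no filter gave 0.0727, 0.0785, 0.122 and 0.141, with 2381 probes. With the top value kept, Emcn had 0.461 and Cldn5 0.0732. With slide run as a block they were 0.0733, 0.108, 0.163 and 0.143, with 2550 probes and 4 genes. Slide run 1 alone gave 0.881, 0.324, 0.591 and 0.385, with 190 probes and 2 genes. Slide run 2 alone gave 0.605, 0.555, 0.708 and 0.58, with 0 probes and 0 genes, though 1479 probes had an unadjusted p below 0.05 in limma. Slide run 3 alone gave 0.0888, 0.228, 0.269 and 0.0953, with 565 probes and 2 genes. Of the members, only Robo4 could be tested among probes measured on all arrays (0.00867, with 2550 probes and 4 genes of 6) and with small whole-number ratios treated as missing (0.0771, past no threshold, with 2537 probes and 4 genes of 5).

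Leaving out each array in turn gave adjusted p from 0.002 to 0.0333 for Tie1, 0.00598 to 0.047 for Emcn, 0.0124 to 0.0541 for Robo4 and 0.000969 to 0.0926 for Cldn5, with 3569 to 5412 probes and 5 to 10 endothelial genes. The range between the highest and lowest tumour was 3.71 to 4.94 for Tie1, 5.19 to 6.52 for Emcn, 1.92 to 2.86 for Robo4 and 5.19 to 9.82 for Cldn5. Of the correlations, that of Emcn and Cldn5 was 0.53 with the top value kept (adjusted permutation p 0.118), and the other 5 kept their side of the threshold for r in every setting run. The cause of these changes was not tested. No paired analysis was possible because the array numbers within a tumour only name the arrays and pair nothing across tumours. Dim spots and 2 arrays per tumour limit each value: the half-difference of a pair had a median of 0.335 for Tie1, 0.431 for Robo4, 0.756 for Emcn and 0.56 for Cldn5.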
